A study of Rattus norvegicus with 30 samples.

Results

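Tissue that had grown through a chitosan tube by day 14 after immediate repair of the cut median nerve was compared, gene by gene, with healthy median nerve. The 9 samples were chosen by their library names alone: 4 of immediate repair at day 14 and 5 of control nerve, out of 30 samples in the series. All came from adult female wild-type rats (Rattus norvegicus). In the repaired animals the nerve of the forelimb was cut to leave an 8 mm gap and bridged at once with a tube, 10 mm long, of chitosan, which is a polysaccharide obtained from chitin. Control nerves were untreated and labelled day 0. Direct tests below also use immediate repair at day 7 (4 samples) and at day 21 (5 samples), and repair delayed by 3 months, sampled at day 14 (4 samples). Delayed repair at day 7 (5 samples) and at day 21 (3 samples) enters with levels alone.

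When a peripheral nerve is cut, the axons beyond the cut degenerate, Schwann cells leave their myelinating state and macrophages clear the debris. In an empty tube a bridge of matrix, fibroblasts, blood vessels and migrating Schwann cells forms first, and axons and then myelin follow. Healthy nerve is a mature tissue of myelinated and unmyelinated axons in their sheaths, so tissue from the tube and whole nerve differ in make-up as well as in injury. In these bulk libraries, fewer cells of a type and less RNA per cell cannot be told apart, nor can the effects of the cut, the tube and the elapsed time.

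Expression was measured by poly(A) RNA sequencing as raw read counts per gene, 13819384 to 15010655 per library at day 14 and 13602942 to 16431590 in control nerve. Of the 32545 listed genes, 16015 passed the filter on low counts and were tested. Levels are given as CPM, a gene's counts scaled to the same library total with edgeR's TMM factors. The deposited table names genes by Ensembl ID only, and 0 of the IDs could be paired with a symbol, so 4 genes are given by ID, the labelled tissue could not be checked against marker genes, and gene groups are defined by their change. Whether replicates are separate animals is not stated in the labels, so the spread behind the p-values may be technical. It was estimated over all 30 libraries in 7 groups together.

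Day 14 tissue differed from healthy nerve in about as many genes upward as downward. By edgeR's quasi-likelihood test, 8239 genes (51.4% of those tested) passed a Benjamini-Hochberg adjusted p of 0.05, of which 4178 (26.1%) were higher and 4061 (25.4%) lower at day 14. Among these, 2721 rises (17.0%) and 2500 falls (15.6%) were at least 2-fold, and 1726 rises (10.8%) and 1446 falls (9.03%) at least 4-fold. Changes of 16-fold or more comprised 650 genes upward (4.06%) and 534 downward (3.33%). The median change over all tested genes was 0.01 on the log2 scale. The TMM factors centre the changes between libraries. A shift shared by most genes would therefore not show in this median or in the balance of rises and falls. DESeq2 called 8648 (54.6%) of the 15828 genes to which it gave an adjusted p. Its shares in the other comparisons below also rest on 15828 genes. In 8179 genes (51.1%) the 4 day 14 libraries lay wholly above or wholly below the 5 control libraries, and this held for 7289 (88.5%) of the genes called. Called genes had a median absolute log2 fold change of 1.45 with a median standard error of 0.29. For the 7776 genes not called, a missed threshold does not show an equal level: in 55.0% of them the 95% interval kept the difference under 2-fold both ways.

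**Figure D1:**
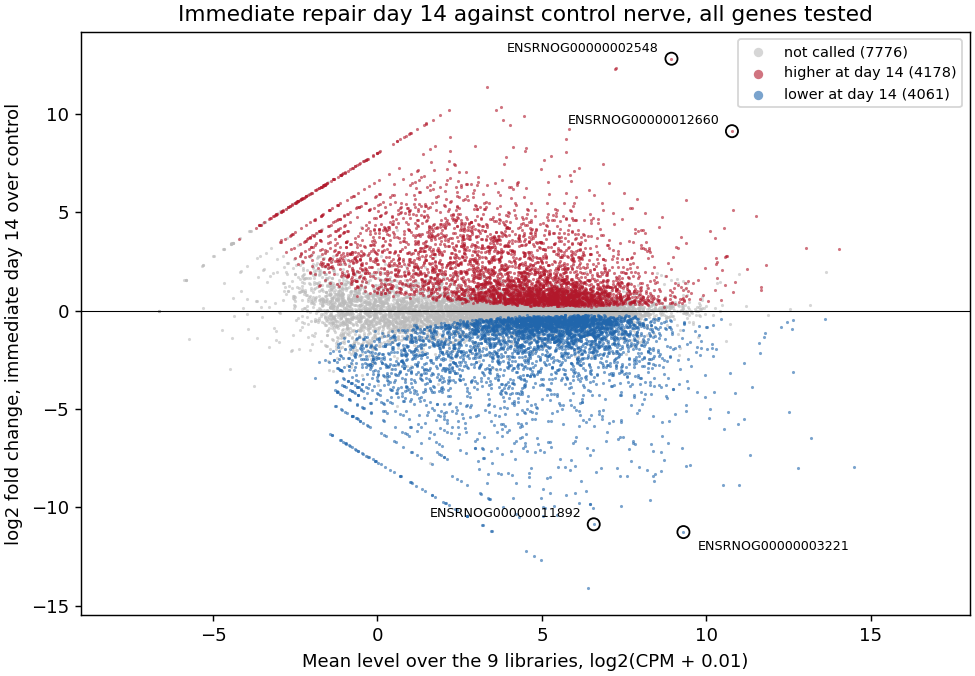
Log2 fold change of immediate repair day 14 over control nerve against the mean level over the 9 libraries, log2(CPM + 0.01), 1 point per gene tested; red and blue points passed an adjusted p of 0.05 and open circles mark the 4 genes given by ID. The 4178 rises and 4061 falls spread over the whole range of levels, and the straight lines of points at low levels are genes with almost no counts in 1 of the groups.

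The genes given by ID were the 2 largest rises and 2 largest falls among genes that passed the test with separate groups. A mean log2 CPM of 3 over the 9 libraries was also required. Genes with larger fitted changes in the plot of fold change by level did not reach that level. Separate groups and a passed test were thus conditions of the choice. The largest rise was that of ENSRNOG00000002548, which was close to undetected in healthy nerve. It measured 1651, 789, 970 and 1003 CPM in the day 14 libraries (replicates 1 to 4), and 0.069, 0.125, 0.479, 0 and 0.081 CPM in the control libraries (replicates 1 to 5). Every day 14 library stood above every control library, and the control values rest on 1, 2, 6, 0 and 1 reads. The log2 fold change was 12.81 (SE 1.69, edgeR adjusted p = 8.21e-07), from 0.151 ± 0.189 CPM (SD, n = 5) to 1103 ± 377 CPM (SD, n = 4).

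ENSRNOG00000012660 made the next largest rise and became one of the more abundant messages of the day 14 tissue. It measured 3350, 3609, 3967 and 4823 CPM in the day 14 libraries and 2.29, 3.00, 7.34, 3.81 and 18.9 CPM in control nerve. The day 14 values lay close together and far above the control values, of which replicate 5 was the highest. The log2 fold change was 9.13 (SE 1.51, edgeR adjusted p = 1.79e-05), from 7.06 ± 6.88 CPM (SD, n = 5) to 3937 ± 643 CPM (SD, n = 4).

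The largest fall by the same rule was that of ENSRNOG00000003221, an abundant message of healthy nerve that was almost absent from the tube. Control libraries held 1229, 1185, 1048, 1266 and 947 CPM, and day 14 libraries 1.29, 0, 0.210 and 0.340 CPM. The day 14 values rest on 19, 0, 3 and 5 reads. The groups did not overlap, and the log2 fold change was -11.26 (SE 2.01, edgeR adjusted p = 4.64e-05), from 1135 ± 134 CPM (SD, n = 5) to 0.459 ± 0.570 CPM (SD, n = 4).

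ENSRNOG00000011892 followed, with 182, 174, 189, 151 and 161 CPM in control nerve and 0.136, 0.063, 0 and 0.136 CPM at day 14. Its day 14 libraries held 2, 1, 0 and 2 reads, while each control library held at least 1985. The log2 fold change was -10.86 (SE 1.25, edgeR adjusted p = 9.85e-08), from 171 ± 15.4 CPM (SD, n = 5) to 0.084 ± 0.066 CPM (SD, n = 4).

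**Figure D2:**
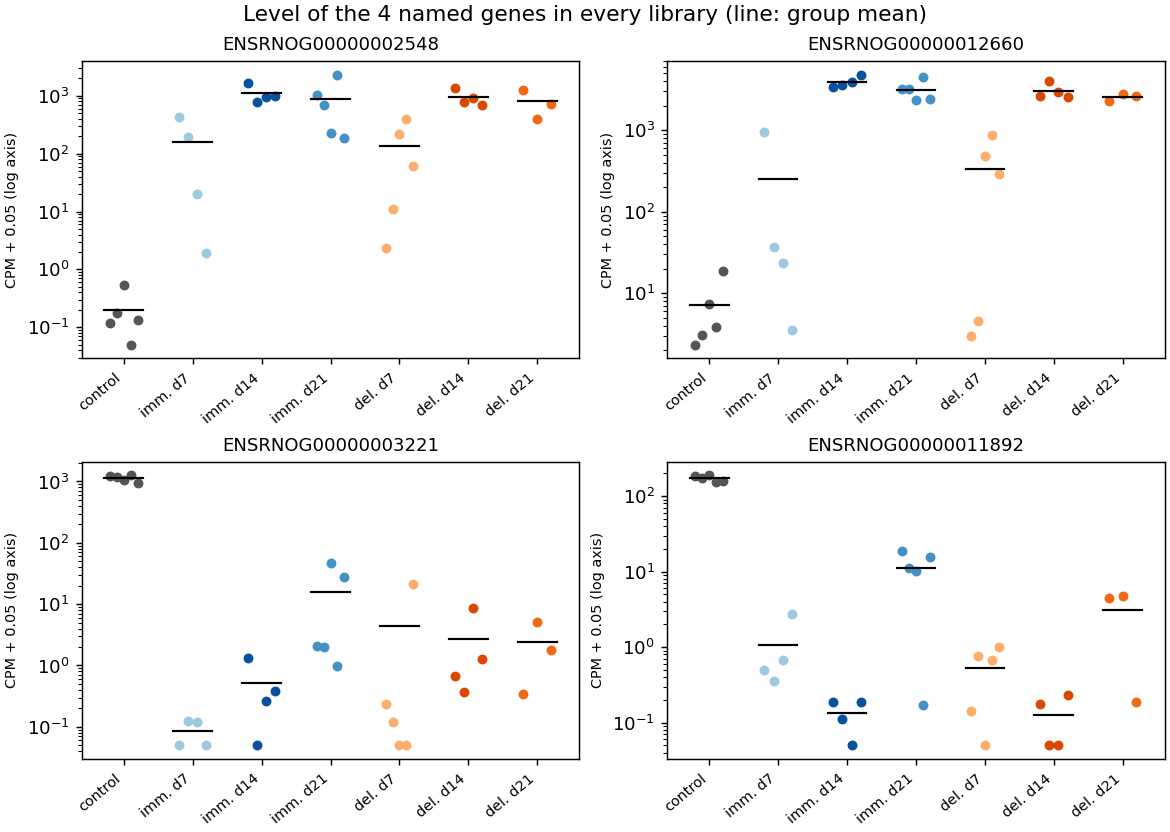
CPM + 0.05 on a log axis for the 4 genes given by ID, 1 point per library in each of the 7 groups of the series (imm., immediate repair; del., delayed repair; d, day), with the group mean as a line. The upper genes rise from 0.151 and 7.06 CPM in control nerve to 1103 and 3937 CPM at day 14 of immediate repair, and the lower genes fall from 1135 and 171 CPM to 0.459 and 0.084 CPM.

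Change was most frequent among the most abundant genes, where falls outnumbered rises. Genes were grouped by their mean over the 9 libraries, which includes the libraries compared. Of 78 genes at 1000 CPM or more, 63 (80.8%) were called, 26 higher and 37 lower. Of 1897 genes between 100 and 1000 CPM, 1155 (60.9%) were called, 465 higher and 690 lower, and 90 rose and 214 fell at least 4-fold. The 8073 genes between 10 and 100 CPM were more even, with 2113 rises and 2178 falls (53.2% called in all), 544 and 503 of them at least 4-fold. Below that the order turned: 1102 rises and 928 falls among 4112 genes between 1 and 10 CPM (49.4% called), and 472 rises and 228 falls among 1855 genes under 1 CPM (37.7% called). The standard error of the log2 fold change had a median of 0.38 at 1000 CPM or more, 0.18 between 100 and 1000 CPM and 0.82 under 1 CPM. Most changes called among the scarce genes were large: 402 of the 472 rises and 191 of the 228 falls under 1 CPM were at least 4-fold.

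In terms of reads, a large share of what a control library held belonged to genes that were scarce at day 14. The 1446 genes at least 4-fold lower took 24.8%, 24.7%, 26.1%, 25.0% and 28.2% of the counts of the control libraries, and 1.86%, 1.65%, 2.08% and 2.22% of those of the day 14 libraries. The 1726 genes at least 4-fold higher took 1.80%, 2.00%, 1.63%, 1.86% and 2.52% of the control counts and 19.5%, 18.8%, 18.5% and 19.6% of the day 14 counts. The day 14 libraries differed little from each other in either share. Since the genes were chosen by this difference, the shares describe its size and test nothing.

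Within each set a few genes carried much of the weight. The 10 most abundant of the 4-fold rises held 8.67% of the day 14 counts, which is 45.4% of the share of their set, and the 10 most abundant of the 4-fold falls held 10.6% of the control counts, 41.3% of theirs. Genes changed by less than 4-fold moved counts as well: the 2452 smaller rises went from 11.3 ± 0.24% (SD, n = 5) to 22.9 ± 1.88% (SD, n = 4), and the 2615 smaller falls from 26.2 ± 1.29% to 15.6 ± 0.31%. Genes not called held 34.7 ± 0.67% of the control counts and 40.4 ± 1.57% of the day 14 counts.

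**Figure D3:**
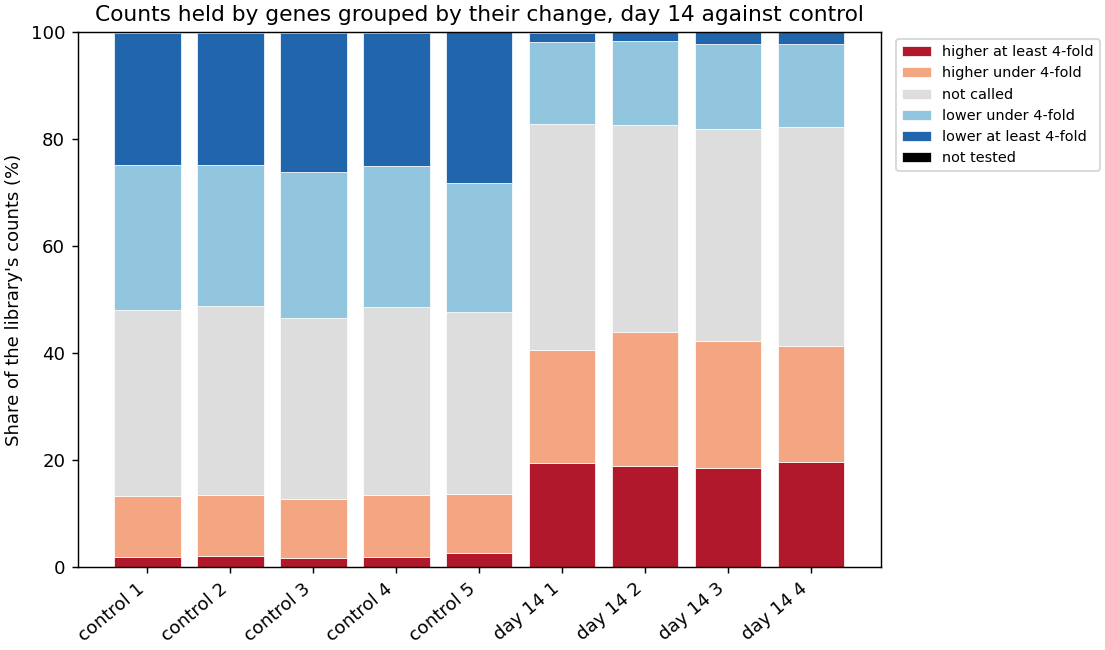
Share of each library's counts, in percent, held by genes grouped by their change between day 14 and control nerve, 1 bar per library. In the 5 control bars the genes at least 4-fold lower at day 14 hold 24.7% to 28.2% and those at least 4-fold higher 1.63% to 2.52%, and in the 4 day 14 bars 1.65% to 2.22% and 18.5% to 19.6%; genes not tested are too few in counts to be seen.

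The lists of the 10 most abundant genes largely differed between the groups. Of the 10 genes with the highest mean in control nerve, 9 were lower at day 14, 5 of them at least 4-fold, and 1 was not called, with log2 fold changes from -8.00 to 0.31. Together they took 12.8 ± 1.45% of the counts of control libraries (SD, n = 5) and 3.80 ± 0.12% at day 14 (SD, n = 4). Of the 10 with the highest mean at day 14, 5 were higher than in control nerve, 4 of them at least 4-fold, 2 were lower and 3 were not called, with log2 fold changes from -0.48 to 4.80. They took 14.3%, 11.2%, 11.4% and 13.4% of the day 14 counts and 4.31% to 5.49% of the control counts. The lists shared 3 genes. Each list was chosen by its level in 1 of the groups compared, which favours falls in the former and rises in the latter. Over all tested genes 26.1% were higher and 25.4% lower at day 14. The evenness of the libraries changed little: 601, 685, 651 and 685 genes were enough to hold 50% of the counts at day 14, and 532 to 653 in control nerve, ranges that overlap.

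Some genes had reads in 1 group alone. Of all listed genes, 169 had no read in any control library and at least 1 read in each of the 4 day 14 libraries, of which 25 had at least 10 reads in each. They were scarce, with a median of 0.418 CPM (here by library total, without TMM factors, since untested genes are included) and 43 genes at 1 CPM or more. In the other direction 150 genes had no read at day 14 and at least 1 in each of the 5 control libraries, 38 of them with at least 10 in each. Their median in control nerve was 0.467 CPM, and 46 reached 1 CPM, with the highest at 144 CPM. Among those with enough counts to be tested, edgeR called 98 of 102 and 57 of 58, against 51.4% of all tested genes. The genes were chosen by the same counts, so these calls describe the choice and test nothing.

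The 4 day 14 libraries were less alike than the control libraries. The 10088 genes whose mean log2 CPM over the 9 libraries reached 3 were used. Their standard deviation within the group had a median of 0.23 (log2) at day 14 and 0.17 in control nerve. It exceeded 1 in 311 genes (3.08%) at day 14 and in 49 (0.486%) in control nerve. Genes abundant in 1 group and almost absent from the other are included, such as ENSRNOG00000003221, and few reads add to their spread. The biological coefficient of variation was 35.2% and 20.5%. It was 52.9% at immediate day 7 and 61.1% at delayed day 7, while the tests use 1 estimate of spread shared by all groups. Spearman correlations between pairs of day 14 libraries ran from 0.946 (replicates 1 and 2) to 0.973 (replicates 3 and 4).

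Replicate 2 of day 14 stood farthest from healthy nerve and nearest to day 7 tissue. Its Spearman correlation with the mean of the control libraries was 0.791, against 0.830, 0.825 and 0.834 in replicates 1, 3 and 4. With the mean of the day 7 libraries of immediate repair it was 0.930, against 0.852, 0.889 and 0.878. Over the 4-fold falls the median log2 CPM was 0.12, -0.07, 0.06 and 0.44 in replicates 1 to 4, and over the 4-fold rises 3.04, 3.63, 3.14 and 3.34, so that replicate 2 was the lowest in the former and the highest in the latter. Control libraries lay between 4.03 and 4.16 and between -0.37 and 0.04. These correlations are across genes, and the libraries differ in number of reads as given above. The 4-fold sets were chosen with replicate 2 among the libraries. Without replicate 2, edgeR called 7511 genes between day 14 and control nerve, against 8239 with all libraries. Without replicates 1, 3 or 4 it called 7677, 7712 or 7637.

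Against day 7 of the same repair, day 14 tissue had gained far more large rises than falls. In a direct edgeR test, 5404 genes (33.7%) differed, 3119 higher (19.5%) and 2285 lower (14.3%) at day 14. Large changes were mostly upward: 1703 (10.6%) against 326 (2.04%) at 4-fold or more, and 668 (4.17%) against 61 (0.381%) at 16-fold or more. The libraries did not overlap in 4539 genes (28.3%), among them 3909 (72.3%) of those called, and DESeq2 called 6127 (38.7%). With the 2 groups fitted alone, 3021 genes were called, and without day 7 replicate 4 the falls of at least 4-fold numbered 203. The 3119 genes higher at day 14 had library medians of log2 CPM of 4.43 ± 0.04 in control nerve (SD, n = 5), 1.27 ± 0.97 in day 7 tissue (n = 4) and 3.93 ± 0.30 in day 14 tissue (n = 4). The 2285 genes lower at day 14 stood at 4.84 ± 0.03, 6.16 ± 0.23 and 5.34 ± 0.19 in the same order. Libraries of the delayed repair had no part in choosing these genes by their contrast. In them the former genes had medians of 1.96 ± 1.05 after 7 days (n = 5) and 3.99 ± 0.14 after 14 days (n = 4), and the latter at 6.05 ± 0.24 and 5.33 ± 0.12.

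Of the genes given by ID, ENSRNOG00000012660 passed the test between day 14 and day 7. It measured 946, 36.8, 23.8 and 3.52 CPM at day 7, all below the lowest day 14 value of 3350 CPM, and rose by 3.96 on the log2 scale (SE 1.32, edgeR adjusted p = 0.0229). The call was lost without day 7 replicate 2 or 3 (edgeR adjusted p = 0.0596 and 0.0643) and with the 2 groups fitted alone (edgeR adjusted p = 0.0972), and without replicate 1, by far the highest at day 7, the log2 change was 7.52. ENSRNOG00000002548 spread from 1.89 to 426 CPM at day 7, also below every day 14 library, with a log2 difference of 2.78 (SE 1.16, edgeR adjusted p = 0.0668). It passed in 2 of 15 alternatives, DESeq2 (adjusted p = 0.0231) and edgeR without day 7 replicate 1 (adjusted p = 0.0227). Of the genes that were low in the tube, ENSRNOG00000003221 had 0, 1, 1 and 0 reads in the day 7 libraries (edgeR adjusted p = 0.389), and ENSRNOG00000011892 measured 0.304 to 2.70 CPM at day 7 (log2 difference -3.42, SE 1.34, edgeR adjusted p = 0.0506). The last gene passed in 5 of 14 alternatives, among them DESeq2 (adjusted p = 0.00692) and edgeR without day 7 replicate 1 or 2 (adjusted p = 0.0403 and 0.0418).

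The sets chosen at day 14 held their place differently in the libraries of other days, none of which entered that contrast. The 1726 genes at least 4-fold higher than control took 20.4 ± 0.69% of the counts in day 7 tissue (SD, n = 4), 19.1 ± 0.53% in day 14 tissue (n = 4) and 15.1 ± 3.68% in day 21 tissue (n = 5). The day 7 range, 19.4% to 20.9%, overlapped that of day 14. The day 21 range, 10.9% to 20.9%, enclosed that of day 14 through replicate 4 alone (20.9%). Day 21 replicates 1, 2, 3 and 5 took 15.4%, 14.9%, 13.5% and 10.9%, below every day 14 library. The 1446 genes at least 4-fold lower took 1.52 ± 0.20% at day 7, 1.95 ± 0.25% at day 14 and 4.75 ± 2.05% at day 21, against 25.8 ± 1.48% in control nerve. Their median log2 CPM lay between -1.66 and -0.93 at day 7, between -0.07 and 0.44 at day 14 and between -0.11 and 1.71 at day 21. In all libraries of those days it stayed below 4.03, the lowest of the control libraries. For these 1446 genes the low ends at day 21 came from replicate 4, at 1.53% and -0.11. Day 21 replicates 1, 2, 3 and 5 held 4.57% to 7.18%, with medians of 1.18 to 1.71.

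**Figure D4:**
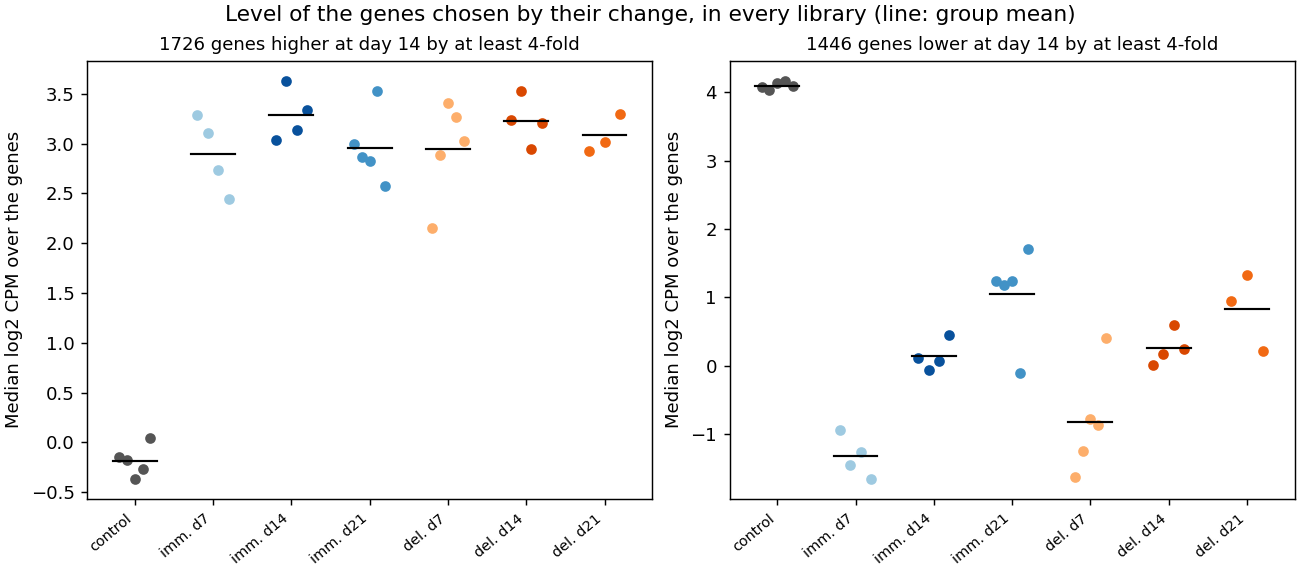
Median log2 CPM over the 1726 genes at least 4-fold higher (left) and the 1446 genes at least 4-fold lower (right) at day 14 of immediate repair than in control nerve, 1 point per library with the group mean as a line. The genes were chosen from the control and immediate day 14 libraries, and the other groups show where they stood elsewhere; on the right the day 7 libraries of immediate repair, at -1.66 to -0.93, lie below the day 14 libraries.

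Between day 14 and day 21 of immediate repair few genes passed the test, and those few were lower at day 14. The direct edgeR test called 41 genes (0.256%), all lower at day 14, 39 of them at least 2-fold (0.244%), 32 at least 4-fold (0.200%) and 21 at least 16-fold (0.131%); 1208 genes (7.54%) had an unadjusted p under 0.05, and DESeq2 called 153 (0.967%), 17 higher and 136 lower. The 41 genes were abundant in control nerve, at a median log2 CPM of 7.09 to 7.51. Their medians in immediate day 14 tissue were 0.21, 0.54, 0.62 and 1.37 in replicates 1 to 4. At day 21 they stood at 5.42, 4.56, 4.82, 0.30 and 5.63 in replicates 1 to 5, so that replicate 4 remained within the day 14 range while the other 4 libraries were well above it. Day 14 and day 21 libraries were wholly apart in 9 of the 41 (22.0%) and in 251 of all tested genes (1.57%).

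The call of these genes was unstable. Without day 21 replicate 4, edgeR called 185 genes, and without day 21 replicates 1, 3 or 5 it called 21, 21 or 12. Without day 14 replicates 1, 2 or 3 no gene was called, and without day 14 replicate 4 there were 15. No gene was called with the 2 groups fitted alone, where 1008 had an unadjusted p under 0.05. In the delayed repair, whose libraries did not enter this contrast, the 41 genes stood at -0.29 to 0.48 at day 14 and at 3.78, 3.93 and 0.78 at day 21, where replicate 3 was low.

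**Figure D5:**
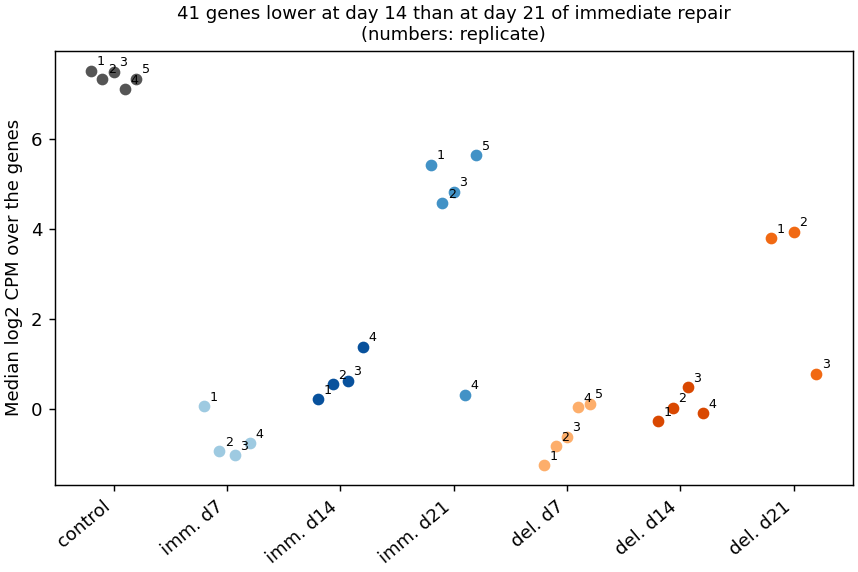
Median log2 CPM over the 41 genes lower at day 14 than at day 21 of immediate repair, 1 point per library with its replicate number, in the 7 groups. Control libraries lie at 7.09 to 7.51 and immediate day 14 libraries at 0.21 to 1.37, while at day 21 replicate 4 of immediate repair (0.30) and replicate 3 of delayed repair (0.78) stand far below the other libraries of their groups.

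ENSRNOG00000011892 was 1 of the 41. At day 21 it measured 18.7, 11.0, 10.1, 0.122 and 15.4 CPM, again with replicate 4 at the level of day 14, and its log2 difference at day 14 was -6.91 (SE 1.17, edgeR adjusted p = 0.0140). That call was lost in 5 of 15 alternatives, among them those without day 14 replicates 1, 2 or 3 (edgeR adjusted p = 0.0661, 0.0864 and 0.0783), and with the 2 groups fitted alone (0.565), while over all alternatives the adjusted p ran from 3.14e-07 to 0.565. ENSRNOG00000003221 measured 0.914 to 46.8 CPM at day 21, with a log2 difference of -5.09 (SE 1.63, edgeR adjusted p = 0.315). The risen genes did not pass between these days: ENSRNOG00000002548 differed by 0.31 (95% interval -1.71 to 2.32, edgeR adjusted p = 0.978) and ENSRNOG00000012660 by 0.33 (95% interval -1.84 to 2.50, edgeR adjusted p = 0.978).

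At day 14 no gene passed the edgeR test between the immediate and the delayed repair. It called 0 of 16015 genes, with 244 (1.52%) at an unadjusted p under 0.05, and DESeq2 called 8 (0.0505%). The libraries did not overlap in 304 genes (1.90%). In 60.9% of genes the 95% interval kept the difference under 2-fold both ways, and in the others it reached past 2-fold or could not be computed. ENSRNOG00000002548 measured 1353, 783, 934 and 694 CPM after delayed repair and ENSRNOG00000012660 2628, 4008, 2986 and 2539 CPM, both overlapping the immediate repair. ENSRNOG00000003221 measured 0.620, 0.318, 8.60 and 1.23 CPM, and ENSRNOG00000011892 0.124, 0, 0 and 0.184 CPM, likewise overlapping.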

How the data were processed

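Per the labels' protocols, 400 ng of RNA (integrity number over 6) went into each poly(T)-captured library, without strand marking, so reads of a gene and an overlapping antisense gene cannot be told apart. The authors deposited raw read counts per gene, 1 column per library. Tools named in the submitters' processing notes, with no role given, are DESeq2 1.38.3, featureCounts 1.5.0-p3 and HISAT2 2.0.5. Not given in the sources used here are the genome build, the annotation release and the handling of reads shared between near-identical genes. Columns were matched to samples by library name.

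The tests used edgeR 4.0.16 in R 4.3.3 (filterByExpr by group, TMM factors, robust quasi-likelihood test) in 1 fit of all 30 libraries and 7 groups, which share an estimate of spread. The Benjamini-Hochberg adjustment covered all 16015 genes. Log2 CPM used a prior count of 2. The genes given by ID are the 2 largest rises and 2 largest falls with an adjusted p under 0.05, mean log2 CPM of at least 3 over the 9 libraries and groups that do not overlap, a fallback for IDs without symbols. Lists fixed by symbol could not be used, and no sequence could be matched. The comparison and these rules were chosen with earlier results of these data known. The fit was first tested on simulated data, in which far fewer genes changed than in the real data. It called 58 of 100 genes changed 2-fold and 76 of 100 changed 4-fold, with 3 false calls. Each simulated gene had the same spread in all groups, whereas the biological coefficient of variation of the real groups ran from 20.5% to 61.1%. The simulation therefore does not show how the shared estimate handles groups of unequal spread. Standard errors were derived from the fold change and its F statistic, and 95% intervals from them with the normal quantile. Replicate pairs of both groups differed by more than sampling noise, with a lowest chi-square per degree of freedom of 14.9. Alternatives were DESeq2 1.42.0, relative log expression factors, no filter, the compared groups alone, a replicate block and leaving out each library.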

Additional observations from a re-analysis of the deposited data

Results flagged for a closer look

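In groups of 4 or 5 samples, a sample was singled out where its gap to the nearest other took an unusually large part of the group's range. Chance does so in about 1 in 20 groups, and 6 of the 45 groups looked at were singled out. The 45 groups reuse the same libraries and are not independent, so an excess over chance was not tested. ENSRNOG00000002548 had its highest control value, 0.479 CPM (6 reads), in replicate 3. ENSRNOG00000012660 had its highest day 7 value after immediate repair, 946 CPM, in replicate 1. ENSRNOG00000003221 had its highest value at day 14 of delayed repair, 8.60 CPM, in replicate 3. ENSRNOG00000011892 had its highest day 7 value after immediate repair, 2.70 CPM (30 reads), in replicate 4. Among the delayed day 14 libraries, the share of counts held by the genes at least 4-fold lower at immediate day 14 was highest in replicate 3, at 2.50%. Among the immediate day 21 libraries, the share held by a library's own 10 most abundant genes was highest in replicate 4, at 13.4%. None of these 6 values lies in the immediate day 14 libraries.

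The distance from control nerve differed between days of immediate repair for 2 of the genes given by ID, by the direct test between days. ENSRNOG00000012660 was higher at day 14 than at day 7 by 3.96 (log2, edgeR adjusted p = 0.0229), with all 4 day 14 libraries above all 4 day 7 libraries. ENSRNOG00000011892 differed between day 14 and day 21 by -6.91 (log2, edgeR adjusted p = 0.0140), with the day 14 libraries below 4 of the 5 day 21 libraries.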

How the results depend on the processing

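For day 14 against control nerve the alternatives called 7511 to 8907 genes, of which 7338 (without day 14 replicate 2) to 8219 (without delayed day 7 replicate 5) were among the 8239. Rises of at least 4-fold ran from 1432 (groups alone) to 1973 (no filter), and such falls from 1327 (without day 14 replicate 2) to 1632 (no filter). The 4 genes given by ID passed in the same direction in each alternative that gave them an adjusted p. DESeq2 gave no adjusted p for ENSRNOG00000012660. The mean share of counts in the 4-fold rises was 21.7% at day 14 and 2.57% in control nerve with the groups fitted alone. With 1 library left out it ran from 18.7% to 21.6% and from 1.89% to 2.53%, the higher values without control replicate 5. Against day 7, the groups fitted alone gave 3021 genes, 1689 higher and 1332 lower, of which 1048 and 208 were at least 4-fold; such falls numbered 203 to 412 with 1 library left out. Against day 21 the count was 153 with DESeq2, 26 without the filter, 0 with the groups alone and 0 to 185 with 1 library left out. Against delayed day 14 DESeq2 called 8 genes and all other alternatives 0. The causes of these shifts were not tested. The replicate block gave 7986 genes against control, 5338 against day 7, 0 against day 21 and 0 against delayed day 14. Equal numbers were not taken as pairs, since in no comparison did every correlation of same-numbered deviations exceed 0.1: they ran from -0.02 to 0.15 with control, -0.14 to 0.27 with day 7, -0.28 to 0.17 with day 21 and 0.08 to 0.41 with delayed day 14, and 2, 1, 0 and 3 of the 4 day 14 libraries correlated best with their own number. Added after seeing the data, fits that left out replicate 5 of delayed day 7 or replicate 4 of immediate day 21 gave 8578 and 8293 genes against control. Genes under 1 CPM were called mostly for large changes.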

Other observations

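The 311 genes whose standard deviation among the day 14 libraries exceeded 1 (log2) were not the mark of a single library. Their mean log2 CPM reached 3 over the 9 libraries, control nerve included, so genes with few day 14 reads can be among them. Replicates 1 to 4 held the highest value in 92, 61, 93 and 65 of them and the lowest in 111, 97, 79 and 24. Replicate 4, which was the lowest least often, was also the library with the highest correlation with the mean of the other day 14 libraries (0.985, against 0.970, 0.969 and 0.978 in replicates 1 to 3). Its median absolute log2 distance from the control mean was 0.52, against 0.54, 0.57 and 0.55.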
